A study of Mus musculus with 18 samples.

Results

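Gene expression in the nucleus accumbens was compared between naive mice labelled Rgs9-2 knockout and naive mice labelled Rgs9-2 wild type, neither of which had nerve injury. The genes described are the 13852 of 37980 in the deposited table that had status OK and at least 1 FPKM (fragments per kilobase of transcript, scaled to the mapped fragments) in both groups. Another 3506 genes had status OK but stayed below 1 FPKM in a group. Each of the 2 naive groups (genotypes Rgs9-2KO and Rgs9-2WT) held 3 biological replicates on a C57BL/6 background, for which the labels give no injection and do not say whether tissue of several mice was pooled. The other 4 groups of the 18-sample series were mice labelled knockout or wild type with spared nerve injury, a lesion of sciatic nerve branches that causes lasting neuropathic pain. These received saline or the tricyclic antidepressant desipramine (15 mg/kg) by intraperitoneal injection 2 times a day. The labels do not give the age or sex of the mice, and no cell-type-specific promoter or Cre is mentioned. Bulk tissue was measured, so fewer cells of a type and less RNA per cell cannot be told apart in any list below.

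The nucleus accumbens is the ventral part of the striatum, where medium spiny neurons receive dopamine from the midbrain and glutamate from cortex, thalamus, hippocampus and amygdala. RGS9-2 is the striatal splice form of a regulator of G protein signalling. Such proteins speed the hydrolysis of GTP by G protein alpha subunits and so shorten the signal of dopamine, opioid and other receptors. A minority of accumbens cells are interneurons, which use GABA together with somatostatin, neuropeptide Y or parvalbumin, or acetylcholine.

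Rgs9 itself had 217 FPKM in mice labelled knockout and 120.3 FPKM in mice labelled wild type, a log2 fold change of 0.85 ± 0.42 (SE). Its level was thus higher in the group labelled knockout, and it is among the genes called. Because 1 value covers the whole gene, reads from exons that the deletion spares count in it, and transcription of the deleted stretch cannot be read from it. The log2 fold change of Rgs9 was also above 0 after injury, at 0.77 under saline and 0.55 under desipramine. Whether genotype labels or columns were exchanged was not tested; an exchange would turn every direction given below. The 2 groups are therefore named by their labels throughout. Each group was sequenced in 1 lane of its own (lane 6 for labelled knockout and lane 5 for labelled wild type), so lane and genotype label cannot be told apart, and the 4 injured groups also had a lane each. The deposited values are 1 per gene and group, with no value per sample. A standard error (SE) below is the log2 fold change over the deposited test statistic.

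A gene was called where its q in the authors' deposited table, from the program Cuffdiff, was at or below 0.05. Of the 13852 members, 184 (1.33%) were called. In mice labelled knockout 41 (0.296%) were higher and 143 (1.03%) were lower. At an unadjusted p below 0.05, 392 members (2.83%) were higher and 882 (6.37%) were lower. The median log2 fold change was -0.02, with quartiles of -0.28 and 0.20, and 6557 members were above 0. Differences of at least 2-fold were found upward in 109 members and downward in 235. Of the 184 called members, 14 belonged to the marker lists of cortical excitatory neurons and of medium spiny neurons, and 170 did not. These lists are short, with 10 of 11 cortical and 4 of 20 medium spiny members called. How many of the 170 are other genes of the same neurons was not tested. Of all 184, 78 were in at least 1 of 82 gene lists and 106 were in none.

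**Figure D1:**
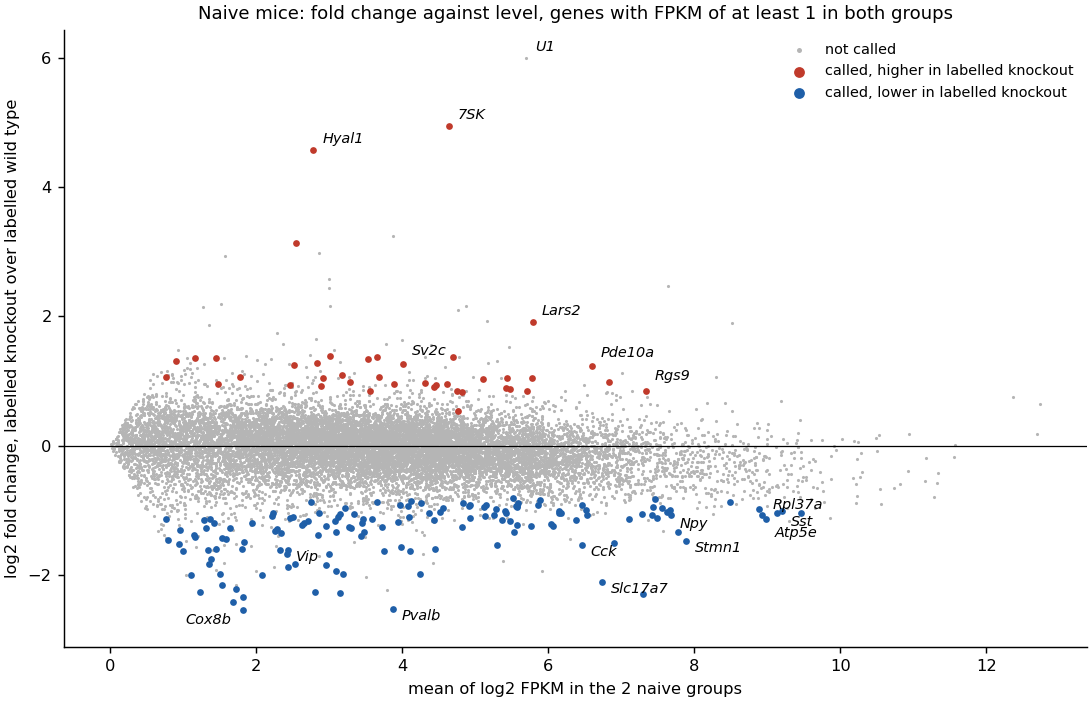
Log2 fold change of labelled knockout over labelled wild type (vertical axis) against the mean log2 FPKM of the 2 naive groups (horizontal axis), 1 point per gene for 13852 genes. The 41 genes called higher are red and the 143 called lower are blue; U1 lies highest at 5.99 and is not called.

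Several neuropeptide genes fell in mice labelled knockout. Of the 25 members of the list, which holds peptide precursors and proteins of dense core vesicles, 8 were called lower and 0 higher, 8 lay above 0, and the median log2 fold change was -0.57. With a normal p, computed from the deposited test statistic and adjusted over all genes tested, 2 passed. The 8 called lower were Cort (cortistatin), Vip (vasoactive intestinal peptide), Gnrh1 (gonadotropin-releasing hormone), Cck (cholecystokinin), Crh (corticotropin-releasing hormone), Crhbp (its binding protein), Sst (somatostatin) and Npy (neuropeptide Y). The promoters of these genes are shown because several of them are textbook targets of CREB, the cAMP response element binding protein, whose element is TGACGTCA and whose minimal core is TGACG. The 100 bases before the RefSeq transcription start (GRCm38.p6, a later build than that of the deposited tables) are given 5′ to 3′ for the 6 of the 8 with an entry, with the element or, where it was missing, the core in capitals.

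Sst, chr16:23890845-23890944, minus strand: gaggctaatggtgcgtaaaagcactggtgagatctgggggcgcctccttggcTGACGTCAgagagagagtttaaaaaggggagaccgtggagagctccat
Vip, chr10:5639118-5639217, plus strand: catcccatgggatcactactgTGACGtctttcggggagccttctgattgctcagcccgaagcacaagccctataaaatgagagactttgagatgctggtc
Cck, chr9:121495695-121495794, minus strand: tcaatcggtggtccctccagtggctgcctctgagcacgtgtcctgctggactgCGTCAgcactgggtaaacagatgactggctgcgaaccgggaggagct
Crhbp, chr13:95444832-95444931, minus strand: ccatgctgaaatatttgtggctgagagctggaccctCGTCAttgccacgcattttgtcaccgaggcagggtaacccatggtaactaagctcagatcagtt
Cort, chr4:149126764-149126863, minus strand: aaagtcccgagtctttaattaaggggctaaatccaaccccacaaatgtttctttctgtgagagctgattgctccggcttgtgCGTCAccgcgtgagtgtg
Npy, chr6:49822610-49822709, plus strand: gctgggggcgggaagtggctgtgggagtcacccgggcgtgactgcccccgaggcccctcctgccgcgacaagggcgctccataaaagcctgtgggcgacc

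The full element was found in Sst alone, starting 48 bases before the transcription start. The core, searched on both strands as TGACG and CGTCA and contained in the full element, was found in 5 of the 6 windows and not in that of Npy. In windows of the same length over all 32851 promoters, the element was in 1.15% and the core in 10.5%. Among the 20 list members with an entry, called or not, 3 held the element and 10 the core. The matches are letters in a window and no binding was measured.

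Sst had the highest level of the 8, with 413 FPKM in mice labelled knockout and 832 FPKM in mice labelled wild type (log2 fold change -1.01 ± 0.29). Npy had 144 FPKM in mice labelled knockout and 288 FPKM in mice labelled wild type (-1.0 ± 0.27). Both peptides mark interneurons of the striatum, though not only there, and the values do not show which region their transcripts came from. Cck had 51.9 FPKM in mice labelled knockout and 149.7 FPKM in mice labelled wild type (-1.53 ± 0.50). Vip had 3.0 FPKM in mice labelled knockout against 9.55 FPKM in mice labelled wild type (-1.67 ± 0.50). The 2 peptides are common in cortical interneurons, and Cck also in pyramidal cells. The lowest fold change of the list was that of Cort, at 1.44 FPKM in mice labelled knockout and 5.67 FPKM in mice labelled wild type (-1.98 ± 0.50). Peptides of medium spiny neurons took other values. Penk (proenkephalin) had 1559 FPKM in mice labelled knockout and 1391 FPKM in mice labelled wild type, Tac1 (substance P) 366 FPKM and 327 FPKM in that order, and Pdyn (prodynorphin) 156 FPKM and 88.6 FPKM. None of the 3 was called, at log2 fold changes of 0.16, 0.17 and 0.82. Among 22 neuropeptide receptors 1 was called, Sstr3, a somatostatin receptor, at 1.74 FPKM in mice labelled knockout and 3.83 FPKM in mice labelled wild type (-1.14 ± 0.51). Markers of cortical excitatory neurons moved with these peptides. All 11 members of that list had a log2 fold change below 0, 10 were called lower and 6 passed with the normal p. The summed level of the 11 was 279 FPKM in mice labelled knockout and 625 FPKM in mice labelled wild type. The part of cortical tissue in the peptide result was not tested.

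GABA interneuron markers split into called and uncalled members. Of 16 members, 6 were called lower and 0 higher, with a median of -0.50 and 5 members above 0, and 3 passed with the normal p. Pvalb (parvalbumin, of fast-spiking cells) had 6.13 FPKM in mice labelled knockout and 35.3 FPKM in mice labelled wild type (-2.52 ± 0.52). Kcnc2, a potassium channel of fast-spiking interneurons, had 5.07 FPKM and 10.4 FPKM in the same order (-1.03 ± 0.40). The other called members were Cort, Vip, Sst and Npy. The genes that every GABA neuron uses, medium spiny neurons included, were not called, and they do not single out interneurons. Gad1 and Gad2, which make GABA, had log2 fold changes of 0.17 ± 0.55 and 0.65 ± 0.52, and Slc32a1, the vesicular GABA transporter, 0.28 ± 0.38. Lhx6 and Nkx2-1, transcription factors of interneurons from the medial ganglionic eminence, had -0.05 ± 0.44 and -0.11 ± 0.47. Of 10 cholinergic markers, Slc5a7, the choline transporter, was called higher at 7.63 FPKM in mice labelled knockout and 4.0 FPKM in mice labelled wild type (0.93 ± 0.41), and 8 of the 10 lay above 0.

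**Figure D2:**
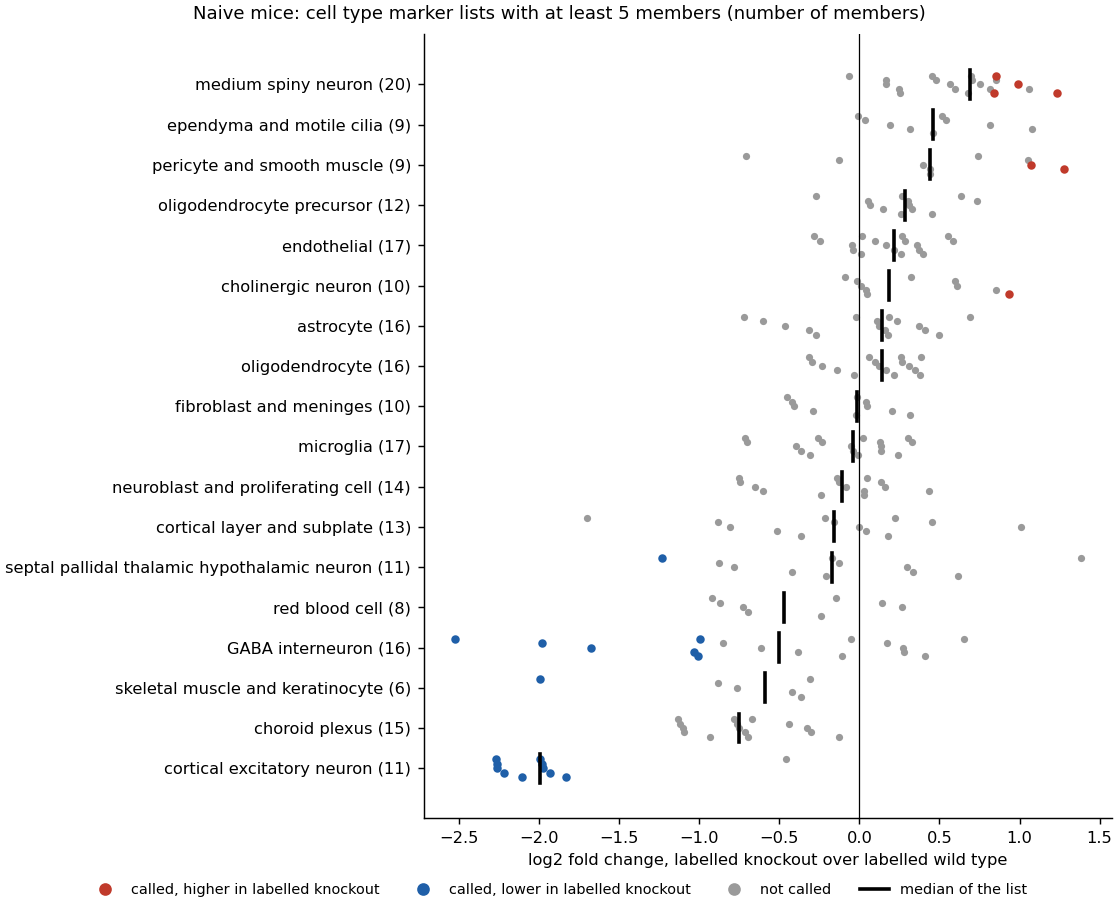
Log2 fold change of labelled knockout over labelled wild type (horizontal axis) for each member of the cell type lists with at least 5 members, with the number of members in brackets and a black bar at each median. Called members are red or blue; the choroid plexus list lies wholly below 0 with no called member, and the interneuron list reaches from -2.52 to 0.65.

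Choroid plexus markers were low together in mice labelled knockout without reaching the threshold. This epithelium lines parts of the ventricles and secretes cerebrospinal fluid. All 15 members lay below 0, with a median of -0.75 and a range of -1.13 to -0.13. Cuffdiff called 0 of them, 3 had an unadjusted p below 0.05, and 0 passed with the normal p. Ttr (transthyretin, a thyroid hormone carrier) had 628 FPKM in mice labelled knockout and 1362 FPKM in mice labelled wild type (-1.12 ± 0.95). Folr1 (a folate receptor) had 11.5 FPKM and 24.6 FPKM in the same order (-1.10 ± 0.71). Aqp1 (a water channel) had 1.71 FPKM and 3.66 FPKM (-1.10 ± 0.65). Ependymal cells, the ciliated lining of the ventricles, lay on the other side. Of 9 members 8 were above 0 with a median of 0.46, and Cuffdiff called 0, with 2 higher at an unadjusted p below 0.05 and 0 by the normal p. The widest difference was in Tmem212, with 5.11 FPKM in mice labelled knockout and 2.42 FPKM in mice labelled wild type (1.08 ± 0.58).

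Among glia and vessels, the smooth muscle list held called genes. Acta2 (smooth muscle actin) and Myh11 (smooth muscle myosin) were called higher, at log2 fold changes of 1.28 ± 0.46 and 1.07 ± 0.54, and 7 of 9 members of the pericyte and smooth muscle list were above 0, although 0 passed with the normal p. For the other 5 lists, Cuffdiff called 0 members and the normal p also passed 0. Oligodendrocyte precursors had 11 of 12 members above 0 with a median of 0.28, and 2 at an unadjusted p below 0.05, Gpr17 (0.63 ± 0.45) and Lhfpl3 (0.73 ± 0.58). Endothelial cells had 13 of 17 above 0 with a median of 0.22, and 1 at an unadjusted p below 0.05, Kdr (0.58 ± 0.50), a receptor for vascular endothelial growth factor. Mature oligodendrocytes had 11 of 16 above 0, a median of 0.14 and 0 at an unadjusted p below 0.05. Mbp, a main protein of myelin, had 1506 FPKM in mice labelled knockout and 1385 FPKM in mice labelled wild type. Astrocytes had 10 of 16 above 0, a median of 0.14 and 3 at an unadjusted p below 0.05, of which Aldh1l1 was lower and Slc4a4 and Aqp4 higher. Microglia had 7 of 17 above 0 and a median of -0.04, with Aif1 (-0.72 ± 0.49) and C1qa (-0.70 ± 0.36) lower at an unadjusted p below 0.05.

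Blood and immune cell transcripts were few. The 4 haemoglobin genes that were members lay between -0.92 and -0.70, and all 4 had an unadjusted p below 0.05, although Cuffdiff called 0 of the 8 red cell members and the normal p passed 0. Hba-a1, an alpha globin, had 48.7 FPKM in mice labelled knockout and 91.9 FPKM in mice labelled wild type, while Slc4a1, the anion exchanger of the red cell membrane, had 0.0124 FPKM in mice labelled knockout and 0.00922 FPKM in mice labelled wild type. Of the immunoglobulin list, 2 members passed the FPKM minimum. Ighm (heavy chain of immunoglobulin M) was called lower, with 6.20 FPKM in mice labelled knockout and 12.8 FPKM in mice labelled wild type (-1.05 ± 0.45). Igkc (kappa light chain) had 1.57 FPKM and 5.51 FPKM in the same order and was not called. The B cell surface gene Ms4a1 had 0.0269 FPKM in mice labelled knockout and 0.0169 FPKM in mice labelled wild type.

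Genes of the synapse moved in both directions. Of 36 members of the vesicle and fusion list, 4 were called higher and 2 lower, and 0 passed with the normal p. The 4 called higher were Syt10 (1.38 ± 0.45) and Syt6 (0.94), which are synaptotagmins, Unc13c (1.38 ± 0.44), which primes vesicles for release, and Sv2c (1.27 ± 0.44), a vesicle glycoprotein of basal ganglia. Sv2c had 25.1 FPKM in mice labelled knockout and 10.5 FPKM in mice labelled wild type. Stx1a (syntaxin 1A, part of the fusion machinery) fell, with 29.1 FPKM in mice labelled knockout and 73.1 FPKM in mice labelled wild type (-1.33 ± 0.54), and so did Syt17 (-1.27). Of 43 potassium channel genes, 22 lay above 0 and 21 below, with a median of 0.03. Cuffdiff called 4 lower and 0 higher, the unadjusted p was below 0.05 for 6 higher and 7 lower, and 0 passed with the normal p. Besides Kcnc2 the called genes were Kcnab3 (-1.34 ± 0.50), an auxiliary subunit, and Kcnj3 (-1.13 ± 0.49) and Kcnj9 (-0.88 ± 0.40), subunits of the channels that G protein beta-gamma opens. Single receptors were called lower, in lists where 0 passed with the normal p: Grm2 (-1.61 ± 0.51) of 24 glutamate receptor genes, Chrm3 (-1.31 ± 0.48) of 8 acetylcholine receptor genes and Adra1b (-1.26 ± 0.60) of 20 monoamine receptor genes. Gabrq, a subunit of the GABA-A receptor, was called higher, with 3.58 FPKM in mice labelled knockout and 1.40 FPKM in mice labelled wild type (1.35 ± 0.67). The postsynaptic scaffold Dlgap1 was lower (-0.93 ± 0.43), the only call among 25 genes of its list. Hapln4, a link protein of perineuronal nets, was also lower (-0.96 ± 0.41). Of the 31 G protein and RGS genes, Cuffdiff called Rgs9 alone, with 18 members above 0. With the normal p 1 member of this list passed, and it was not Rgs9.

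Among signalling lists, 3 of 27 cyclic nucleotide members were called higher and 0 lower, and 0 passed with the normal p. Pde10a, Pde1c and Pde7b are phosphodiesterases, which break down cyclic nucleotides, and had log2 fold changes of 1.23 ± 0.52, 1.10 ± 0.46 and 0.90 ± 0.41. Markers of medium spiny neurons, a list that includes Pde10a, moved with them. Of its 20 members 19 lay above 0, the median was 0.69, 4 were called higher and 0 lower, 0 passed with the normal p, and the summed level was 5661 FPKM in mice labelled knockout and 4322 FPKM in mice labelled wild type. The part of these neurons in the phosphodiesterase result was not tested. Immediate-early genes, which neuronal activity induces, had 0 of 27 called by Cuffdiff and 0 by the normal p, with 4 higher and 3 lower at an unadjusted p below 0.05. Fosb had 4.45 FPKM in mice labelled knockout and 2.33 FPKM in mice labelled wild type (0.93 ± 0.44), and Egr3 34.1 FPKM and 19.6 FPKM in that order (0.80 ± 0.43). Of 24 imprinted genes, which are expressed from 1 parental allele, 2 were called higher and 0 lower, and 0 passed with the normal p. Dlk1, a ligand related to Notch ligands, had 41.7 FPKM in mice labelled knockout and 16.04 FPKM in mice labelled wild type (1.38 ± 0.52), and Usp29 13.8 FPKM and 6.96 FPKM in that order (0.99 ± 0.44).

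Genes for protein synthesis, respiration and protein turnover were low as groups in mice labelled knockout, mostly without calls of single genes. Of 83 cytosolic ribosomal protein genes, 74 lay below 0, the median was -0.43, and Rpl37a was the 1 called (-1.06 ± 0.31). At an unadjusted p below 0.05, 27 were lower and 0 higher. Their summed level was 33588 FPKM in mice labelled knockout and 47938 FPKM in mice labelled wild type. Mitochondrial ribosomal proteins had 70 of 76 below 0 with a median of -0.40, and Cuffdiff and the normal p called 0, with 14 lower and 0 higher at an unadjusted p below 0.05. Nuclear genes of the respiratory chain had 75 of 80 below 0, a median of -0.52, 36 lower and 0 higher at an unadjusted p below 0.05, and 4 called lower, and 1 passed with the normal p. The 4 called were Cox8b of complex IV, Atp5e of the ATP synthase, and Ndufb7 and Ndufa11 of complex I. Atp5e had 343 FPKM in mice labelled knockout and 748 FPKM in mice labelled wild type (-1.13 ± 0.49). Cox8b had the lowest log2 fold change of the called coding members, with 1.47 FPKM in mice labelled knockout and 8.50 FPKM in mice labelled wild type (-2.53 ± 0.36). Proteasome genes had 35 of 36 below 0 and a median of -0.39, and Cuffdiff and the normal p called 0, with 8 lower and 0 higher at an unadjusted p below 0.05. The tubulin and neurofilament list had 21 of 23 below 0 and a median of -0.48, with Stmn1 (-1.47 ± 0.45) and Stmn3 (-1.04 ± 0.46), proteins that bind tubulin, called lower, and 0 passed with the normal p. Lysosome and autophagy genes had a median of -0.31 with 3 of 24 above 0, cholesterol synthesis genes -0.34 with Fdps called lower (-0.81 ± 0.44), and glycolysis genes -0.28 with 2 of 18 above 0. Mt1, a metallothionein, was called lower, with 489.6 FPKM in mice labelled knockout and 1010.3 FPKM in mice labelled wild type (-1.05 ± 0.44).

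Other lists had medians nearer 0 or above it. Citric acid cycle genes had a median of -0.11, heat shock and DnaJ chaperones -0.04, spliceosome and RNA-binding genes -0.06, and chromatin regulators 0.10. Of 309 genes named Zfp (zinc finger proteins), 222 were above 0 with a median of 0.15, and the single call was Zfp428, lower (-0.97 ± 0.44). Of 21 clustered protocadherins, cell adhesion proteins of neurons, 15 were above 0 with a median of 0.30. Cuffdiff and the normal p called 0 of them, and 1 was higher at an unadjusted p below 0.05.

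**Figure D3:**
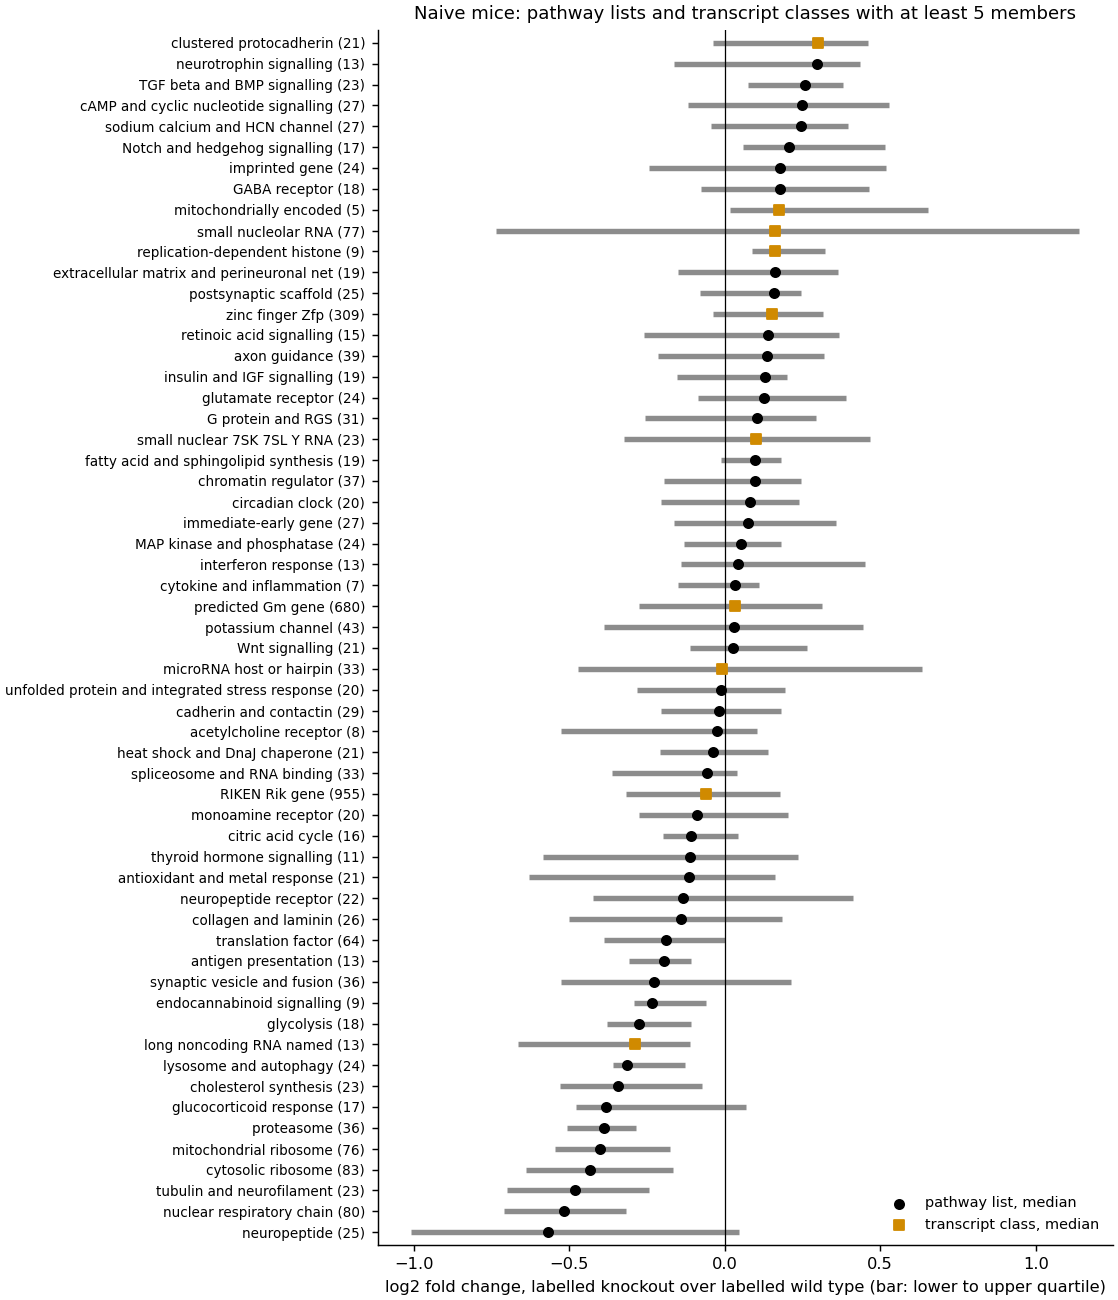
Median (black circle for pathway lists, orange square for transcript classes) and range from the lower to the upper quartile (grey bar) of the log2 fold change, labelled knockout over labelled wild type, for lists with at least 5 members, numbers in brackets. Neuropeptides (-0.57) and the respiratory chain (-0.52) lie lowest and clustered protocadherins (0.30) highest.

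The fold change varied with the length of the transcript. With the longest GENCODE M21 transcript of each gene, matched by gene ID for 13430 members (97.0%), the median log2 fold change was -0.26 for transcripts of up to 2108 bases and 0.16 for those of at least 4805 bases. The 4 equal length classes had medians of -0.26, -0.09, 0.03 and 0.16 from short to long. In the shortest class 67 genes were called lower and 5 higher, and in the longest class 7 lower and 22 higher. Across genes, which are not independent replicates, the Spearman correlation between length and fold change was 0.39. It was 0.26 for the span of the locus listed in the deposited table, -0.25 for the GC content of the transcript and -0.20 for the mean level. Without the lists of ribosomal and respiratory chain genes it was 0.38 for length. The median transcript of the genes called lower was 2167 bases long and that of the genes called higher 5180.0 bases, against 3354 bases for all members with a length. The low lists differed in length: the median transcript was 1106 bases for cytosolic ribosomal proteins, 1384 bases for neuropeptides, 2665 bases for lysosome and autophagy genes and 3521 bases for cholesterol synthesis genes. Within the shortest class, the 70 cytosolic ribosomal genes had a median of -0.40 and all other genes -0.25. The 65 respiratory chain genes there had -0.55, against -0.25 for all others, and the 18 neuropeptide genes -0.74, against -0.26. Zinc finger genes in that class, 26 in number, had a median of 0.05, against -0.26 for all others. Level was not held equal in these comparisons. In the lowest of 4 locus span classes, the median was -0.32 in the highest of 4 level classes and -0.04 in the lowest. The same 4 length classes had medians between -0.01 and 0.01 in both comparisons of the genotype labels after injury.

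**Figure D4:**
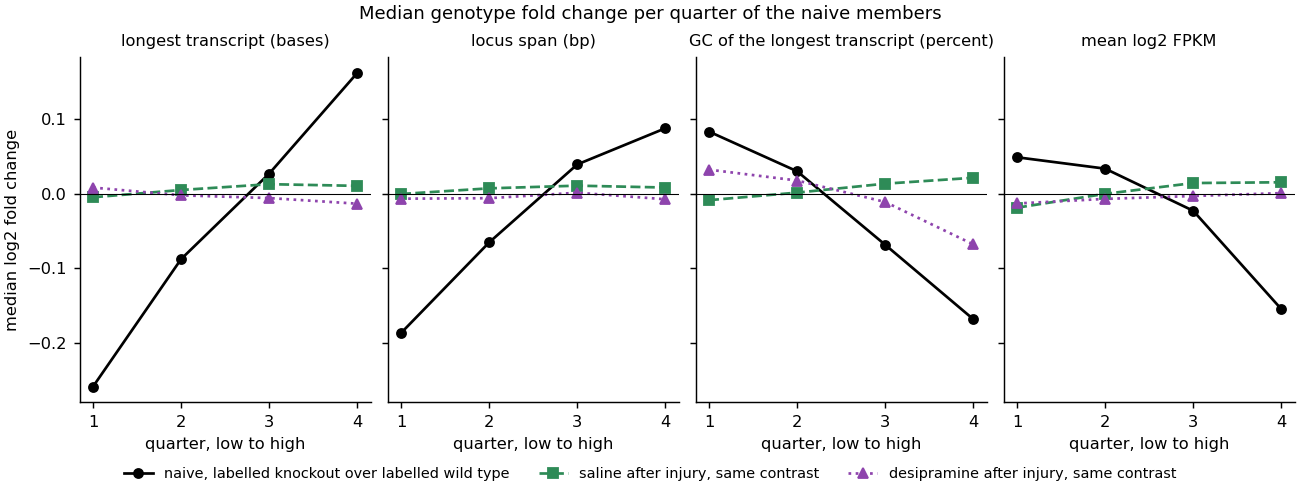
Median log2 fold change, labelled knockout over labelled wild type, in 4 equal classes of the naive members, ordered low to high on each horizontal axis by the longest transcript, the locus span, the GC content and the mean log2 FPKM. Black is naive mice, green saline and purple desipramine after injury; the black line rises from -0.26 to 0.16 with transcript length.

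Small structural RNAs held the highest fold changes. The gene 7SK at chr9:78023109-78023440 (NCBIM37), which encodes a nuclear RNA that holds back transcription elongation factor P-TEFb, had 138 FPKM in mice labelled knockout and 4.50 FPKM in mice labelled wild type (4.94 ± 0.27) and was called. A copy of U1, the RNA that recognises 5′ splice sites, had 415 FPKM in mice labelled knockout and 6.53 FPKM in mice labelled wild type. It was not called, and its log2 fold change of 5.99 was the highest of all members. The table lists 206 genes named U1, of which 10 were members, and 331 named 7SK, of which 4 were, so reads of near-identical copies could be split between them and these values are uncertain. The other 9 members named U1 lay between -1.54 and 0.45, and the other 3 named 7SK between -0.21 and 0.49. Small nucleolar RNAs had wide values, with quartiles of -0.74 and 1.14 around a median of 0.16, and Cuffdiff called 0 of 77, with 1 higher at an unadjusted p below 0.05 and 14 by the normal p. By annotated class, 12810 members were protein coding with 37 called higher and 133 lower. Long intergenic RNAs numbered 381, with a median of -0.07, 1 called higher and 3 lower, among them Miat (-1.04 ± 0.45). Antisense RNAs numbered 235 with 1 called lower. Pseudogenes numbered 175, with a median of 0.06 and 4 called lower, of which Gm11942 had 71.4 FPKM in mice labelled knockout and 348 FPKM in mice labelled wild type (-2.28 ± 0.47). Reads of pseudogenes and their parent genes may not be separable. Mitochondrially encoded genes were mostly untested: 11 of the 12 genes with too many reads for the test were of this class. Of the 5 that were members, mt-Nd1 and mt-Nd2 had the highest log2 fold changes, at 0.65 ± 0.73 and 0.75 ± 0.66. The others were mt-Nd3 (0.18), mt-Rnr1 (0.02) and mt-Rnr2 (-0.17). The median of the 5 was 0.18, and none was called.

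The outermost called coding genes included several outside any list, but some of those named here belonged to one. Hyal1 was in the extracellular matrix and perineuronal net list, Myl4 in that of skeletal muscle and keratinocytes, and Eif6 in that of translation factors. Rtn4rl2 was among the called cortical excitatory markers already counted above. Hyal1, a hyaluronidase, had 33.7 FPKM in mice labelled knockout and 1.41 FPKM in mice labelled wild type (4.57 ± 0.73), at a locus that overlaps Hyal3, Nat6 and Gm16343, so its reads are not certain to be its own. Lars2, the mitochondrial leucyl-tRNA synthetase, had 107 FPKM in mice labelled knockout and 28.6 FPKM in mice labelled wild type (1.91 ± 0.64). St8sia2, which adds polysialic acid to the cell adhesion protein NCAM, had a log2 fold change of 1.36 ± 0.48. Cntnap3, of the contactin-associated family, had 1.25 ± 0.44, Pou3f4, a transcription factor of the developing striatum, 1.07 ± 0.41, and Acvr1c, an activin-type receptor, 1.06 ± 0.47. On the low side, Dkkl1 had 1.39 FPKM in mice labelled knockout and 7.44 FPKM in mice labelled wild type (-2.42 ± 0.56), Scube1, a secreted protein, 1.38 FPKM and 6.13 FPKM in that order (-2.15 ± 0.64), and Myl4, a myosin light chain, 2.12 FPKM and 8.44 FPKM (-2.0 ± 0.53). Rtn4r and Rtn4rl2, the Nogo receptor and its relative, were lower at -1.84 ± 0.48 and -1.93 ± 0.71. Eif6, a factor that keeps ribosomal subunits apart, was lower at -1.22 ± 0.38. Of the 184 called loci, 45 overlapped another listed locus.

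Markers of sex were examined because the labels do not give it. Xist, which is expressed in females, was at 0.0226 FPKM in mice labelled knockout and 0.131 FPKM in mice labelled wild type, and Cuffdiff did not test it. The Y-linked gene Eif2s3y had 43.9 FPKM and 57.6 FPKM in the same order, Ddx3y 15.4 FPKM and 14.2 FPKM, Uty 6.20 FPKM and 4.86 FPKM, and Kdm5d 5.42 FPKM and 4.20 FPKM. Of the 7 sex chromosome markers that were members, Cuffdiff called 0, 0 had an unadjusted p below 0.05, and 0 passed with the normal p.

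The same contrast after injury shares no samples with the naive one. Under saline 37 of 14063 genes (0.263%) were called, and 6 of them were among the 184, which is 3.26% of the naive calls and 16.2% of the saline calls. Rgs9 (0.77), Ppp1r16b (0.57), a phosphatase subunit, and Gm11942 (-1.78) kept the sign that they had in naive mice. Gabrq (-1.45), Gm7120 (-0.93) and Rpsa-ps10 (1.40), named as a pseudogene but annotated as protein coding in the deposited table, had the opposite sign. Under desipramine 110 of 14093 genes (0.781%) were called. Of these, 45 were among the 184, which is 24.5% of the naive calls and 40.9% of the desipramine calls, and all 45 had the same sign in both, 7 higher and 38 lower. They included Pvalb (-0.90 after desipramine), Cck (-1.0), Vip (-0.93), Gnrh1 (-1.45), Stx1a (-0.73), Kcnab3 (-0.63), Kcnc2 (-0.42), Hyal1 (2.96), Lars2 (2.56) and 7SK (3.06). Sst and Npy were not among them.

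The difference between the naive fold change and that after injury was tested gene by gene, with a two-sided normal p over the combined SE and Benjamini-Hochberg adjustment. Against saline, 22 of 13636 genes (0.161%) passed, 6 with a higher naive fold change and 16 with a lower one. With the larger of 2 SE estimates, from the test statistic or from the deposited p, 7 passed. These 7 were Cox8b (difference -3.47 ± 0.48), Rpsa-ps10 (-2.91 ± 0.45), Gm11549 (-3.12 ± 0.66), Neurod6 (-2.83 ± 0.64), Slc17a7 (-2.79 ± 0.64), Rprm (-1.99 ± 0.45) and Gal (3.02 ± 0.68). Neurod6 and Slc17a7 are cortical excitatory markers, and Rprm is a cell cycle regulator used as a marker of cortical layer 6. Gal, which encodes the peptide galanin, had 5.90 FPKM in mice labelled knockout and 2.26 FPKM in mice labelled wild type when naive (1.38 ± 0.56), and under saline -1.64 ± 0.37. Against desipramine, 8 of 13643 genes (0.0586%) passed, 4 on each side, and with the larger SE 0 did, while 149 had an unadjusted p below 0.05. Ttr had the widest of these differences, at -6.04 ± 1.17, with log2 fold changes of -1.12 in naive mice and 4.92 after desipramine. Pvalb differed from saline by -2.77 ± 0.62, with the smaller SE only.

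Side by side, the ribosomal, respiratory chain and proteasome lists took medians near 0 in both other comparisons of the genotype labels. The respiratory chain had medians of -0.52 in naive mice, 0.02 under saline and 0.01 under desipramine, and the cytosolic ribosome -0.43, -0.07 and 0.05 in that order. Choroid plexus markers had -0.75, 1.22 and 2.18, ependymal markers 0.46, -0.74 and 0.67, and cortical excitatory markers -2.0, 0.56 and -0.93. The comparison of injured saline mice with naive mice uses the naive groups again, and its values are given for that reason without a test. For the respiratory chain the median was 0.00 in mice labelled knockout and -0.56 in mice labelled wild type, for the cytosolic ribosome -0.09 and -0.44, and for the proteasome 0.01 and -0.39 in that order. For medium spiny neuron markers it was -0.43 in mice labelled knockout and 0.01 in mice labelled wild type.

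**Figure D5:**
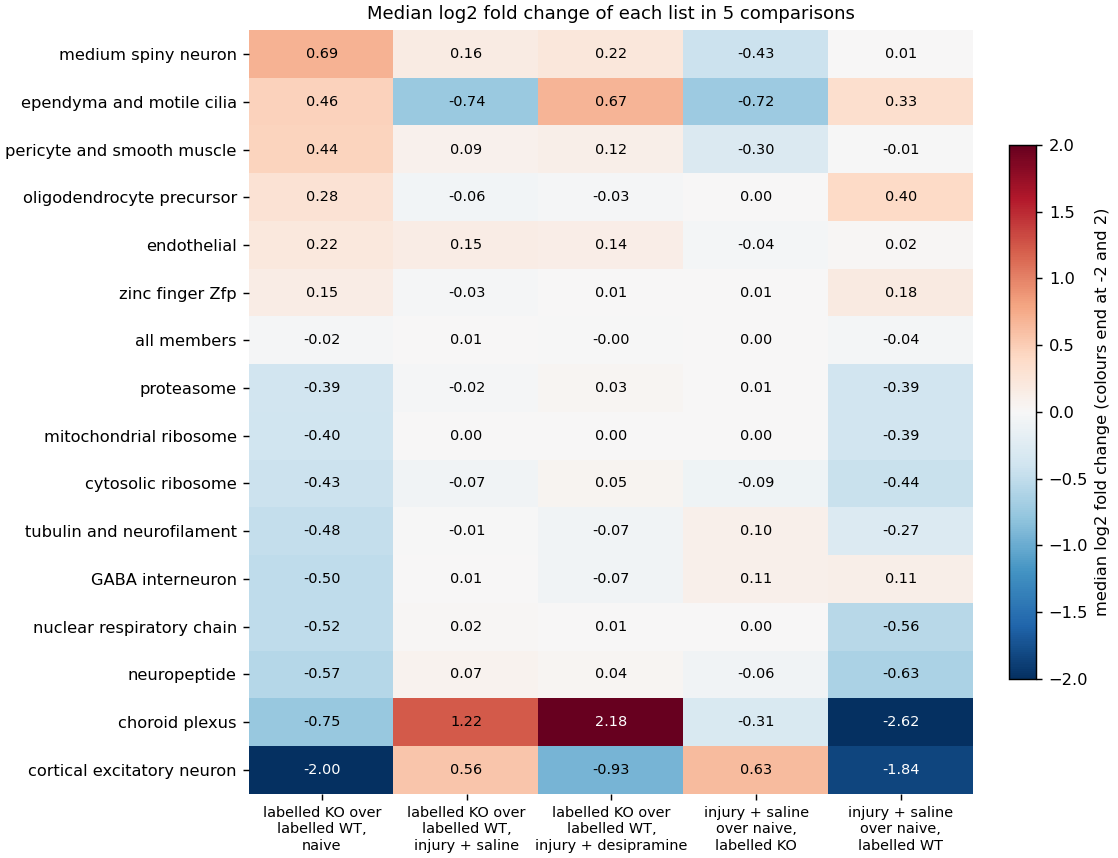
Median log2 fold change of 15 lists and of all members (rows) in 5 comparisons (columns), written in each cell; the first 3 columns share no samples, and the last 2 share the naive groups with the first. The respiratory chain, ribosomes and proteasome are well below 0 in the naive column and in the injury column of labelled wild type (respiratory chain -0.52 and -0.56), and near 0 in the others.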

How the data were processed

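RNA was purified with Trizol and RNeasy Micro columns and sequenced from TruSeq libraries, per the labels' protocols. Bowtie2 2.1.0, TopHat2 2.0.9 and Cuffdiff 2.1.1 were used with mm9 and NCBIM37, per the submitters' processing notes. The FPKM values were deposited by the authors as 1 per gene and group, so depth per sample is unknown. The log2 fold change, the test statistic (a score) and the p-value and q-value are those of the authors' Cuffdiff run, per the file headers. Log2 fold changes given here were computed from the 2 FPKM columns with no pseudocount. An SE was recovered for 13779 members, none where the deposited and computed log2 differed by over 0.01 or where the statistic and p conflicted. The samples are called biological replicates in the design text.

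The members and the gene lists were chosen with earlier results of these data known, so lists carry no test. Genes were named by rule: Rgs9, the 15 highest and 15 lowest called genes that are not predicted, RIKEN, pseudogene or small RNA, up to 4 called members per list (or 2 with the smallest p), sex markers, and 5 per side of each difference; other members were named after their values were seen, and not all are named. Transcript lengths and GC are from GENCODE M21 (GRCm38), matched by gene ID, and promoters from RefSeq (GRCm38.p6); gene coordinates are those of the deposited tables (NCBIM37), with an annotation release that no source used here names. The difference test was run on simulated fold changes drawn with the recovered SE taken as true. Such a run cannot show whether that SE is right. Alternatives are listed below. Analyses used Python 3.11.15, numpy 2.4.6, pandas 2.3.3 and scipy 1.17.1.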

Additional observations from a re-analysis of the deposited data

Results flagged for a closer look

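The difference between the genotype fold change in naive mice and that after injury passed its test for the genes given here, as the naive log2 fold change minus the other. Against saline, cortical excitatory markers were Slc30a3 (-2.75), Neurod6 (-2.83), Slc17a7 (-2.79) and Fezf2 (-2.78). Other neuronal genes were Pvalb (-2.77), Rprm (-1.99), Rtn4r (-2.44) and the galanin gene Gal (3.02), with Gng13, a G protein gamma subunit, at -1.30. Coding genes of other kinds were Cox8b (-3.47), Dkkl1 (-3.17), Hyal1 (4.62), Nkain2 (0.85) and Alox5ap (1.99). Less well characterised genes were Gm11549 (-3.12), Gm13306 (-1.99), Gm16355 (-1.44), AC149222.1 (-1.34), 2010107E04Rik (-1.06) and Rpsa-ps10 (-2.91). The small RNA genes were 7SK (4.66) and Scarna13 (1.29). With the larger SE, only Cox8b, Rpsa-ps10, Gm11549, Neurod6, Slc17a7, Rprm and Gal passed against saline. The locus of Alox5ap overlaps n-R5s180, so its reads are not certain to be its own. Nkain2 is a name that more than 1 listed gene carries, and the value is that of a single entry.

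Against desipramine, Ttr differed by -6.04, Igkc by -1.95, 1500015O10Rik by -2.63, 2010107E04Rik by -1.0, Alox5ap by 1.63, 7SK by 1.88, Nkain2 by 0.62 and the U1 copy by 0.64. For Alox5ap, Nkain2 and U1 the recovered SE was small beside the deposited p. With the larger SE none of the genes in this paragraph passed against desipramine.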

How the results depend on the processing

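No paired analysis was possible because the deposited tables hold 1 pooled value per gene and group; for the same reason no replicate could be left out. The 184 calls (41 higher, 143 lower) became 82 (20 and 62) at a q of 0.01 and 286 at 0.10, with 73 higher. With a normal p they were 72 (26 and 46), of which 23 were shared with the 184. With recovered SE only they were 25 (7 and 18), and after centring 24 (7 and 17). At 5 FPKM in both groups they were 120 (91 lower). The other alternatives gave 148 to 250 calls. The difference from saline, 22 genes, became 8 at 5 FPKM and 7 with the larger SE. That from desipramine, 8 genes, became 5 and 0. Of the 186 genes tested for stability, 54 lost their call under the normal p and 9 gained one, and none changed sign. Of 82 list medians, 3 changed sign with 1 FPKM in either group and 4 after centring, and 9 of 81 did at 5 FPKM. The larger SE, the longest transcript in place of locus span, and calls without the cortical and medium spiny lists were alternatives chosen after seeing the data. The cause of these changes was not tested. Depth is unknown, so no counting limit can be given.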

Other observations

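Other signalling and channel lists lay on both sides of 0. Of 23 TGF beta and BMP genes 18 were above 0 (median 0.26), of 17 Notch and hedgehog genes 14 were (0.21), and of 27 sodium, calcium and HCN channel genes 18 were (0.25). Cuffdiff called 0 in each of these 3 lists and the normal p also passed 0. At an unadjusted p below 0.05 the counts, higher then lower, were 2 and 2, 3 and 1, and 3 and 1. Endocannabinoid genes had 8 of 9 members below 0 (median -0.23), again with 0 called by either p and 1 lower at an unadjusted p below 0.05. Thyroid hormone signalling genes had a median of -0.11 with 4 of 11 above 0, 0 called by either p and 1 lower at an unadjusted p below 0.05. Glucocorticoid response genes had a median of -0.38 with 7 of 17 above 0 and 1 called lower, and 0 passed with the normal p.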
